A study of Mus musculus with 6 samples.

Results

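Peroxiredoxins, superoxide dismutases, catalase and thioredoxin are the enzymes and the small electron carrier that remove superoxide and hydrogen peroxide from cells. The genes described are Prdx1 to Prdx6, Cat, Sod1, Sod2 and Txn1, which were chosen by name. They were followed through every probe that carries one of these symbols in the authors' deposited table, which gave 18 probes of 10 genes among the table's 31692 probes. All 18 were well above background on all 6 arrays and entered the test. That table holds only a part of the array's 56605 probes. Probes of these genes outside it, dim ones among them, were not looked at. The brightest probe of a gene is called its lead probe.

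RNA of whole spleen was measured in female mice of the NOD strain, in which autoimmune diabetes arises without any trigger being given, on 1-colour Agilent arrays with 3 MOTS-c and 3 vehicle samples. MOTS-c is a short peptide encoded in mitochondrial DNA, given by intraperitoneal injection at 0.5 mg/kg/day, and the vehicle was a scrambled version of the peptide. All mice entered the study at 6 weeks of age and spleens were taken at 18 weeks after 16 to 18 h without food. Whether each array is 1 mouse is not stated in the labels, and p-values then cover only the spread among the arrays, which may be technical. No uninjected mice and no other strain are among them. The question is how the transcripts of these enzymes differ in the spleen after MOTS-c.

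Superoxide dismutases turn superoxide into hydrogen peroxide, SOD1 in the cytosol and SOD2 in the mitochondrial matrix. Catalase, in peroxisomes, and the peroxiredoxins, in several compartments, then destroy the peroxide, and thioredoxin returns most oxidised peroxiredoxins to their active form. In the spleen these enzymes are found in every cell type, and peroxiredoxin 2 and catalase are abundant in red cells and their precursors, which mice also form in the spleen.

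Some arrays stood apart. Vehicle 1 had the lowest 75th percentile of signal, 671, against 831 to 913 on the other arrays, and correlated with them at 0.955 to 0.977, where the others correlated with each other at 0.980 to 0.991. Vehicle 1 and vehicle 2 were on 1 slide, and vehicle 3 shared the other slide with the 3 MOTS-c arrays, so a fit with the slide as a block takes its difference from vehicle 3 alone. The 7 tested genes of pancreatic acinar cells, as a mean deviation from each gene's own mean (log2), stood at -1.78, -2.81 and 0.12 in MOTS-c 1 to 3, against 1.47, -1.60 and 4.60 in vehicle 1 to 3, so that vehicle 3 was far above the rest. Differences of the enzymes and of the named partners are therefore also given within that slide or without single arrays where this changes them most.

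Of the 10 genes, 9 had a lower mean in MOTS-c spleens than in vehicle spleens by the lead probe, with differences of very unequal size. Prdx2 was 2.16-fold lower and Prdx3 1.87-fold lower, while Cat, Sod1 and Txn1 were 1.41-fold to 1.48-fold lower. In these 5 genes every MOTS-c array lay below every vehicle array. Prdx1 and Sod2 differed by less than 0.03 on the log2 scale, and Prdx5 was the only gene with a higher mean. With limma and an adjusted p of 0.05 as the threshold, 0 of the 18 probes passed, against 2 of all 33734 tested probes, or 0.00593%.

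Levels are given as log2 of the background-subtracted signal over the 75th percentile of the same array, so that a level of 5 is a signal 5 doublings above that percentile. Differences are MOTS-c minus vehicle on the log2 scale with their SE, and the test was limma's, two-sided, with Benjamini-Hochberg adjustment over all tested probes. At an unadjusted p under 0.05, 5 of the 10 lead probes were lower and 0 higher, against 13.8% of the lead probes of all 22511 tested genes lower and 11.2% higher. In such shares and medians over all genes, here and below, a tested probe without a gene ID was counted as a gene of its own. All 10 lead probes have a mean level above 0, and among the 10087 genes with such bright lead probes 17.6% were lower and 8.61% higher. Groups did not overlap in 5 of 10 lead probes, with MOTS-c below vehicle in 5 and above it in 0, against 18.6% and 16.2% of genes, and 26.6% lower among the bright ones. A lower mean was found in 9 of 10, against 48.1% of genes and 55.6% of the bright ones. With the slide as a block, 3 of 10 lay below and 0 above at that p, against 6.74% and 2.75% of tested probes. Over every probe, 7 of 18 lay below and 0 above at that p, against 13.8% and 11.7% of tested probes. All MOTS-c arrays lay below all vehicle arrays in 7 of 18 and above them in 0, against 18% and 16.6% of tested probes. The median difference of the 10 lead probes was -0.49, and that of all genes was 0.022.

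**Figure D1:**
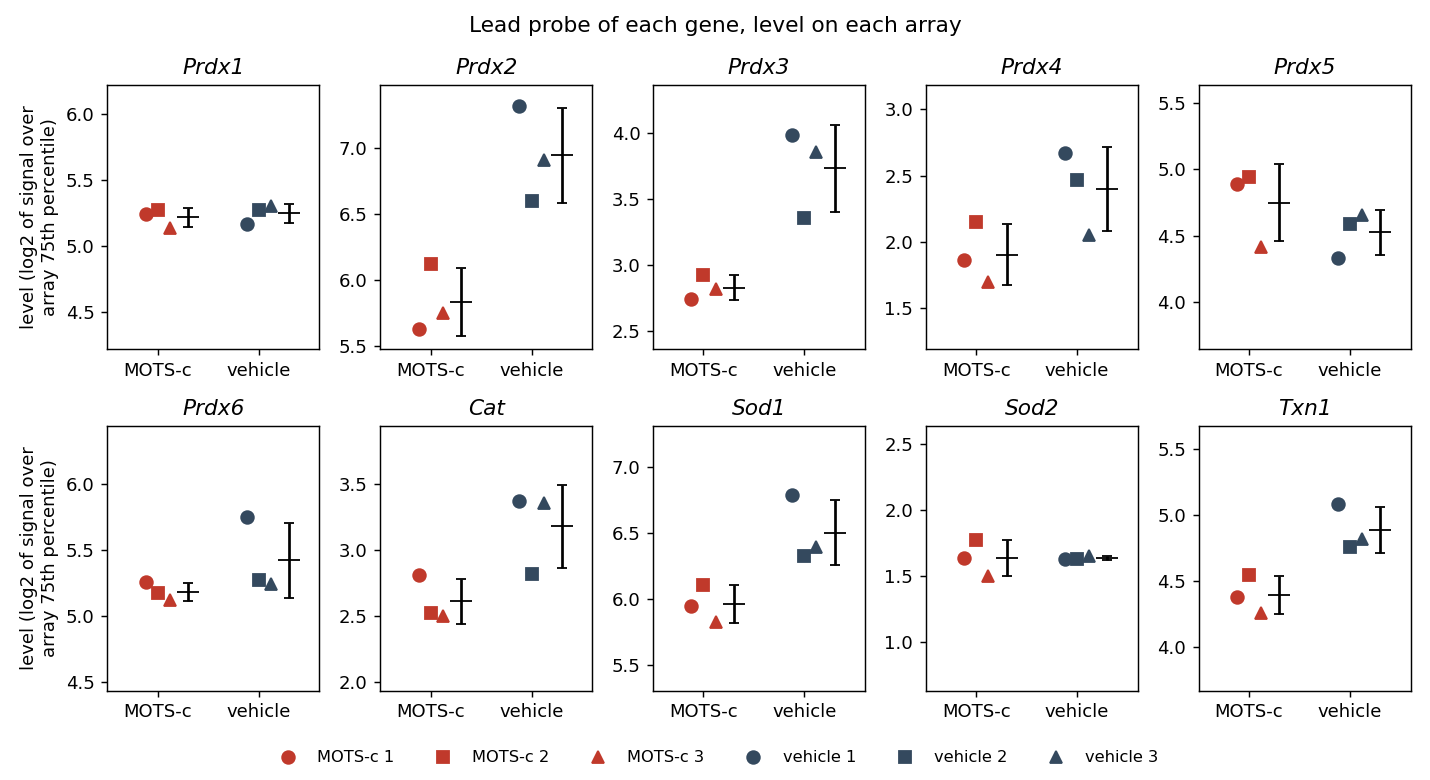
Level of the lead probe of each of the 10 genes on each array, as log2 of signal over the array's 75th percentile. Each panel spans the same height of 2 log2 units, markers are arrays, and bars are the mean ± SD of 3 arrays. Prdx2 and Prdx3 show the widest gap between MOTS-c and vehicle, whereas the Prdx1 and Sod2 points of both groups cover one another.

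Prdx2 encodes a cytosolic peroxiredoxin that is among the most abundant proteins of the red cell. The lead probe read 5.63, 6.12 and 5.75 in MOTS-c 1 to 3, against 7.32, 6.60 and 6.91 in vehicle 1 to 3. The groups did not overlap, with a gap of 0.48 between the highest MOTS-c array and the lowest vehicle array, MOTS-c 2 and vehicle 2. The means were 5.83 ± 0.26 in MOTS-c and 6.94 ± 0.36 in vehicle spleens (SD, n = 3 each), a difference of -1.11 ± 0.23 (SE) with a limma p of 0.00172 and an adjusted p of 0.0807. A second probe, with other bases, read 3.62, 4.08 and 3.75 in MOTS-c 1 to 3, against 5.64, 4.88 and 5.09 in vehicle 1 to 3. It differed by -1.39 ± 0.23, a 2.62-fold lower signal, with a p of 0.000509 and an adjusted p of 0.0807. The probes lie on chromosome 8, at chr8:87498153-87498212 for the lead probe and chr8:87494387-87494446 for the other, on the plus strand of mm9. Within the slide of the MOTS-c arrays the differences were -1.08 and -1.28, with p-values of 0.0205 and 0.0103 for the slide as a block, and without vehicle 1 they were -0.92 and -1.17. Without vehicle 2, the lowest vehicle array for both, adjusted p-values were 0.0469 and 0.0462. In that fit 1033 of all 33734 tested probes passed an adjusted p of 0.05. Over all alternatives the adjusted p ran from 0.0469 to 0.478 for the lead probe and from 0.0462 to 0.478 for the other.

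The last 30 bases of each Prdx2 probe, 5′ to 3′, are given because they show that the pair holds different bases. The capitals mark the polyadenylation hexamer AATAAA, which only the lead probe holds.
Prdx2 lead probe: ataggaaaccAATAAAgtattagggacagt
Prdx2 second probe: gaggacttccgaaagcctaggctgcgaggt

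Prdx1 encodes the other abundant cytosolic peroxiredoxin, close to PRDX2 in sequence and likewise reduced by thioredoxin. Its lead probe read 5.24, 5.28 and 5.14 in MOTS-c 1 to 3, against 5.17, 5.27 and 5.30 in vehicle 1 to 3. These ranges covered one another, and the difference was -0.029 ± 0.14 (SE) with a 95% interval of -0.35 to 0.29. A pair of further probes, both spanning more than their own length on the genome, differed by 0.024 ± 0.14 and 0.028 ± 0.14. The fourth, designed on another transcript model, was dim, at -4.88, -4.74 and -5.37 in MOTS-c 1 to 3, against -4.75, -5.41 and -5.64 in vehicle 1 to 3, and differed by 0.26 ± 0.28, or 0.64 within the slide. The lead probe lies at chr4:116372029-116372088 on the plus strand of mm9. The direction depended on the scaling: with quantile normalization the lead probe was higher in MOTS-c spleens by 0.21 ± 0.14 (p 0.184), as in the authors' deposited table, where its signed fold is 1.16 with a p of 0.174. The lead probe's interval lies wholly above the Prdx2 lead probe's interval of -1.65 to -0.57; the difference between these genes was not tested.

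Prdx3 encodes the peroxiredoxin of the mitochondrial matrix. It read 2.74, 2.93 and 2.82 in MOTS-c 1 to 3, against 3.98, 3.36 and 3.85 in vehicle 1 to 3. The MOTS-c arrays lay within 0.19 of each other and all below the vehicle arrays, of which vehicle 2 was the lowest. The means were 2.83 ± 0.09 in MOTS-c and 3.73 ± 0.33 in vehicle spleens (SD, n = 3 each), a difference of -0.90 ± 0.20 (SE) with a p of 0.00223 and an adjusted p of 0.0814. The difference was -1.02 within the slide, with a p of 0.0109 for the slide as a block, and -0.78 without vehicle 1, and without vehicle 2 it was -1.09, with an adjusted p of 0.0462. In the fit without vehicle 2, 1033 of all 33734 tested probes passed an adjusted p of 0.05. Over all alternatives the adjusted p of Prdx3 ran from 0.0462 to 0.478. Its single probe lies at chr19:60940148-60940207 on the minus strand of mm9.

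Prdx4 encodes the peroxiredoxin of the endoplasmic reticulum, which passes oxidising power to proteins being folded there. Its lead probe read 1.86, 2.15 and 1.70 in MOTS-c 1 to 3, against 2.67, 2.47 and 2.05 in vehicle 1 to 3, so MOTS-c 2 lay above vehicle 3. The difference was -0.49 ± 0.21 (SE) with a p of 0.0509 and an adjusted p of 0.198. A dim second probe at the level of -5.05 in MOTS-c and -4.32 in vehicle spleens differed by -0.72 ± 0.28. Within the slide the differences were -0.15 and -0.23. The lead probe lies at chrX:151764882-151764941 and the other at chrX:151771909-151771968, on the minus strand of mm9. Markers of plasma cells, which are rich in this compartment, had a median difference of 0.16 over 8 tested of 9 genes, 2 lower and 6 higher, with 0 of 8 at an unadjusted p under 0.05, against 13.8% of all genes lower and 11.2% higher. That median was 0.058 without MOTS-c 1, 0.28 without MOTS-c 3, 0.059 without vehicle 1, 0.33 without vehicle 2, 0.10 without vehicle 3 and 0.27 within the slide.

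Prdx5, an atypical peroxiredoxin of mitochondria, peroxisomes and cytosol, was the gene with a higher mean. The lead probe read 4.89, 4.94 and 4.41 in MOTS-c 1 to 3, against 4.33, 4.59 and 4.65 in vehicle 1 to 3, so MOTS-c 3 lay below both vehicle 2 and vehicle 3. Its probes differed by 0.22 ± 0.19 (SE) and 0.34 ± 0.20, with adjusted p-values of 0.473 and 0.308. With quantile normalization the differences were 0.45 for both, with p-values of 0.0590 and 0.0537. With a normexp background correction before it they were 0.46 and 0.50. The p-values were then 0.0360 and 0.0230, and the adjusted ones 0.164 and 0.137. Within the slide they were 0.095 and 0.16, and without vehicle 1 the lead probe was 0.13 higher. The lead probe lies at chr19:6981197-6981256 and the other at chr19:6981371-6981430, on the minus strand of mm9.

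Prdx6 encodes the peroxiredoxin with 1 active cysteine, which draws on glutathione and also acts as a phospholipase. The lead probe read 5.26, 5.17 and 5.12 in MOTS-c 1 to 3, against 5.75, 5.28 and 5.24 in vehicle 1 to 3. Vehicle 1 and vehicle 2 lay above every MOTS-c array, vehicle 2 only just, and vehicle 3 did not. The difference of -0.24 ± 0.18 (SE) was -0.073 without vehicle 1, -0.055 within the slide and -0.0011 with quantile normalization. In a second probe all MOTS-c arrays, at 2.31, 2.34 and 2.40, lay below the vehicle arrays, at 3.20, 2.61 and 2.41, by 0.0073 at the closest. That probe differed by -0.39 ± 0.22, with a p of 0.115, by -0.16 without vehicle 1 and by -0.063 within the slide. The lead probe lies at chr1:163171138-163171197 and the other at chr1:163173715-163173774, on the minus strand of mm9.

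Cat encodes catalase, the heme enzyme of peroxisomes that splits hydrogen peroxide without a reducing partner. It read 2.81, 2.53 and 2.50 in MOTS-c 1 to 3, against 3.37, 2.82 and 3.35 in vehicle 1 to 3. The groups did not overlap, but MOTS-c 1 and vehicle 2 were 0.0093 apart. The means were 2.61 ± 0.17 in MOTS-c and 3.18 ± 0.31 in vehicle spleens (SD, n = 3 each), a 1.48-fold lower signal with a difference of -0.57 ± 0.20 (SE), a p of 0.0241 and an adjusted p of 0.148. The difference was -0.74 within the slide, with a p of 0.0389 for the slide as a block, and ran from -0.75 to -0.47 with each array left out in turn. The probe lies at chr2:103294660-103294719 on the minus strand of mm9.

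Sod1, the copper and zinc superoxide dismutase of the cytosol, read 5.95, 6.11 and 5.83 in MOTS-c 1 to 3, against 6.79, 6.33 and 6.40 in vehicle 1 to 3 by its lead probe. The groups did not overlap, and vehicle 1 was the highest array. The difference was -0.54 ± 0.18 (SE), a 1.45-fold lower signal, with a p of 0.0179 and an adjusted p of 0.135, and it was -0.40 without vehicle 1, -0.43 within the slide (p 0.139 for the slide as a block) and -0.33 with quantile normalization. A second probe, designed on a complementary DNA clone, was at a level of -1.41 in MOTS-c and -1.38 in vehicle spleens and differed by -0.031 ± 0.14. Its 95% interval of -0.36 to 0.30 overlaps the lead probe's of -0.96 to -0.12, and the difference between the probes was not tested. The lead probe lies at chr16:90226497-90226556 and the other at chr16:90224181-90224240, on the plus strand of mm9. Sod2, the manganese enzyme of mitochondria, read 1.64, 1.77 and 1.50 in MOTS-c 1 to 3, against 1.63, 1.63 and 1.66 in vehicle 1 to 3. The vehicle arrays fell within the range of the MOTS-c arrays. The difference was -0.0047 ± 0.14, with a 95% interval of -0.34 to 0.33 that leaves room for a change of about that size either way, and it was 0.046 with quantile normalization. Its probe lies at chr17:13210864-13210923 on the plus strand of mm9.

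Txn1 encodes cytosolic thioredoxin, the protein that reduces most of the peroxiredoxins. It read 4.38, 4.55 and 4.26 in MOTS-c 1 to 3, against 5.08, 4.76 and 4.82 in vehicle 1 to 3. All MOTS-c arrays lay below all vehicle arrays, and the difference was -0.49 ± 0.16 (SE), a 1.41-fold lower signal, with a p of 0.0176 and an adjusted p of 0.134. It was -0.26 with quantile normalization (p 0.0793) and -0.42 within the slide (p 0.115 for the slide as a block). Its probe lies at chr4:57956677-57956736 on the minus strand of mm9.

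**Figure D2:**
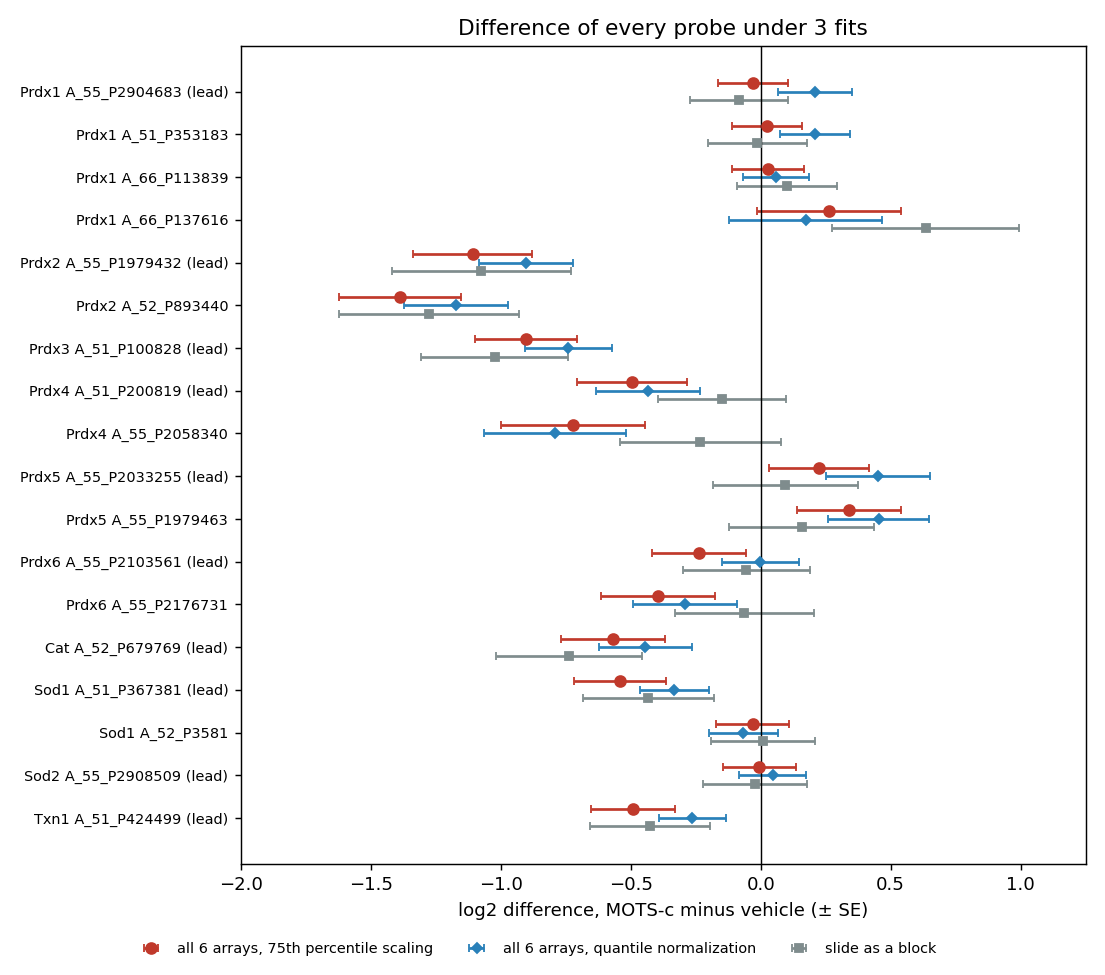
Difference of each of the 18 probes, MOTS-c minus vehicle on the log2 scale, ± SE. Circles are the values with each array scaled to its 75th percentile, diamonds those with quantile normalization and squares those with the slide as a block. The Prdx2 probes lie between -1.39 and -0.90 in all 3 fits, while both Prdx4 probes move from -0.49 and -0.72 to -0.15 and -0.23 with the slide as a block.

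In the authors' deposited table, whose values are quantile normalized, 5 of the 18 probes have a p under 0.05, each lower with MOTS-c, against 7.9% of its 31692 probes lower and 5.54% higher at that p. The signed folds in the authors' deposited table are -1.87 and -2.25 for the Prdx2 probes, -1.67 for Prdx3, -1.26 for the Sod1 lead probe and -1.20 for Txn1. No probe passes there after adjustment, the lowest adjusted p of the 18 being 0.37. For Cat the authors' deposited table gives -1.36 with a p of 0.0794. Of the 10 lead probes, 9 were lower with the 75th percentile, 7 with quantile normalization and 6 when limma was run on the authors' deposited log2 values.

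The partners of these enzymes were read from a list of 34 genes of the thioredoxin and glutathione systems and of the NRF2 pathway, the transcription factor that switches on many antioxidant genes. All 34 were tested by their lead probe, 23 with a lower and 11 with a higher mean in MOTS-c spleens, and the median difference was -0.19, against 0.022 over all genes. At an unadjusted p under 0.05, 9 were lower and 1 higher, against 13.8% and 11.2% of genes, and 0 did at an adjusted one. All MOTS-c arrays lay below all vehicle arrays in 10 and above them in 1, against 18.6% and 16.2% of genes. Most of these lead probes have a mean level above 0. Among all genes with such bright lead probes, 17.6% were lower and 8.61% higher at that unadjusted p. In 26.6% of those bright genes all MOTS-c arrays lay below all vehicle arrays. With the slide as a block, 5 of the 34 had an unadjusted p below that threshold, against 6.74% of probes lower and 2.75% higher.

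Glrx5, a mitochondrial glutaredoxin needed for iron-sulphur clusters and so for heme synthesis, read 4.78, 4.83 and 4.70 in MOTS-c 1 to 3, against 6.36, 5.72 and 5.92 in vehicle 1 to 3. The groups did not overlap, and the difference of -1.23 ± 0.19 (SE) had a p of 0.000319 and an adjusted p of 0.0807. Txnrd2, the mitochondrial thioredoxin reductase that keeps the partner of PRDX3 reduced, read 3.96, 4.11 and 3.93 in MOTS-c 1 to 3, against 5.31, 4.59 and 5.08 in vehicle 1 to 3. The groups were again apart, with a difference of -0.99 ± 0.21, a p of 0.00185 and an adjusted p of 0.0812. Nqo1, Gclm, Gpx1 and Gpx4, a quinone reductase, a subunit of the first enzyme of glutathione synthesis and a pair of glutathione peroxidases, were at log2 differences of -1.30, -1.12, -0.86 and -0.75, in that order, with no overlap of the groups. Gclc, the catalytic partner of Gclm, differed by -0.79 ± 0.25 (p 0.0158), and Gss, which completes glutathione, by -0.56 ± 0.21 (p 0.0315), with overlap in Gss and not in Gclc. With the slide as a block, Gss was at -0.15 ± 0.21 (SE), Gpx4 at -0.62 ± 0.27 and Gclc at -0.89 ± 0.38. Glrx5, Txnrd2, Nqo1, Gclm and Gpx1 lay between -1.15 and -0.89 there, with SEs of 0.28 to 0.34. Without vehicle 2, Glrx5, Nqo1, Gclm, Txnrd2 and Gpx1 passed an adjusted p of 0.05. In that fit 1033 of all 33734 tested probes passed, 894 lower and 139 higher.

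Singled out after their values were seen are the cytosolic reductase Txnrd1, the mitochondrial thioredoxin Txn2 and sulfiredoxin Srxn1, which repairs overoxidised peroxiredoxins. They differed by -0.27 ± 0.20, -0.32 ± 0.16 and -0.31 ± 0.18 (SE), and the groups overlapped in each. Within the slide the differences were 0.13, -0.13 and -0.51, in the same order, so that of Txnrd1 turned, and without vehicle 1 that of Txnrd1 was -0.14. The 1 partner higher at an unadjusted p under 0.05 was Sesn3, a sestrin, likewise chosen after the fact, with 2.10 ± 0.05 in MOTS-c and 1.40 ± 0.56 in vehicle spleens (SD, n = 3 each) and vehicle 1 at 0.76. Its difference of 0.69 was 0.37 without vehicle 1 and 0.42 within the slide, with a p of 0.321 for the slide as a block.

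**Figure D3:**
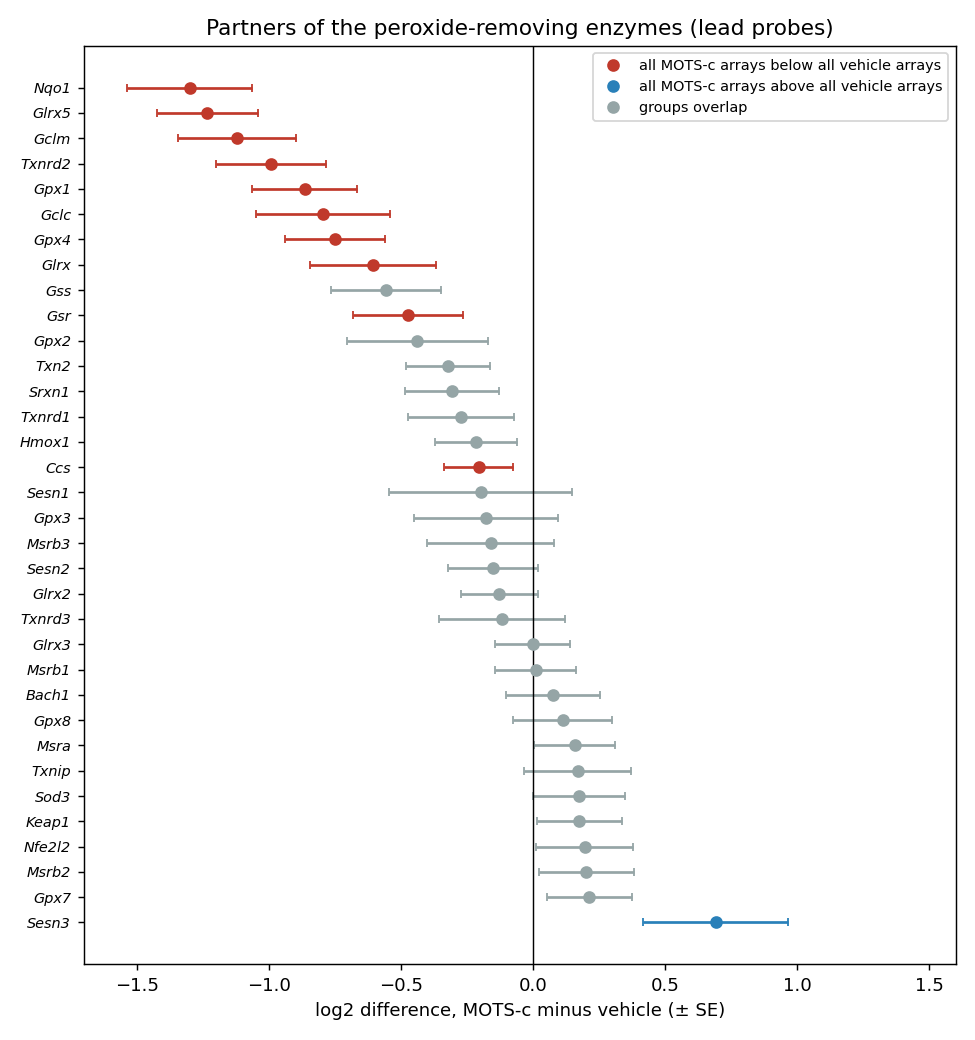
Difference of the lead probe of each of the 34 partner genes, MOTS-c minus vehicle on the log2 scale, ± SE, with colours for whether the 3 arrays of one group all lie on one side of the other group's. Nqo1 and Glrx5 lie lowest, at -1.30 and -1.23, and Sesn3 highest, at 0.69.

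Cell cycle genes and markers of cell types were read from lists in the same way. Those of red cells and their precursors had a median difference of -1.21, with 21 of 21 genes lower and 20 at an unadjusted p under 0.05, against 13.8% of all genes lower and 11.2% higher at that p. Cell cycle genes had one of -1.15, with 14 of 14 lower and 14 at that p. T cell markers had a median of 0.97 and B cell markers one of 0.76, with 15 of 15 and 11 of 11 genes higher, of which 6 and 4 were at that p, and without vehicle 1 these medians were 0.43 and 0.30. Red pulp macrophage markers had a median of -0.10, with 8 lower and 3 higher, that turned to 0.074 with quantile normalization, and neutrophil markers one of 1.12 that was -0.16 within the slide. Of the genes on these lists, 0 passed at an adjusted p of 0.05. In bulk spleen, fewer cells of a type and less RNA per cell cannot be told apart, and the part of these cell types in the enzymes' differences was not tested.

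As a mean deviation from each gene's own mean, the 10 lead probes stood at -0.20, -0.085 and -0.34 in MOTS-c 1 to 3, against 0.37, 0.070 and 0.18 in vehicle 1 to 3. The erythroid list stood at -0.57, -0.45 and -0.72 in MOTS-c 1 to 3, against 0.97, 0.21 and 0.57 in vehicle 1 to 3. The cell cycle list stood at -0.70, -0.27 and -0.72 in MOTS-c 1 to 3, against 0.97, 0.23 and 0.49 in vehicle 1 to 3. In all 3 means, vehicle 1 was the highest and MOTS-c 3 the lowest array, and within each group the arrays were in the same order. Single enzymes did not all keep that order. Sod1 and Txn1 did by their lead probes. Among the MOTS-c arrays, however, Prdx2 was lowest in MOTS-c 1, at 5.63, and Cat was highest there, at 2.81.

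**Figure D4:**
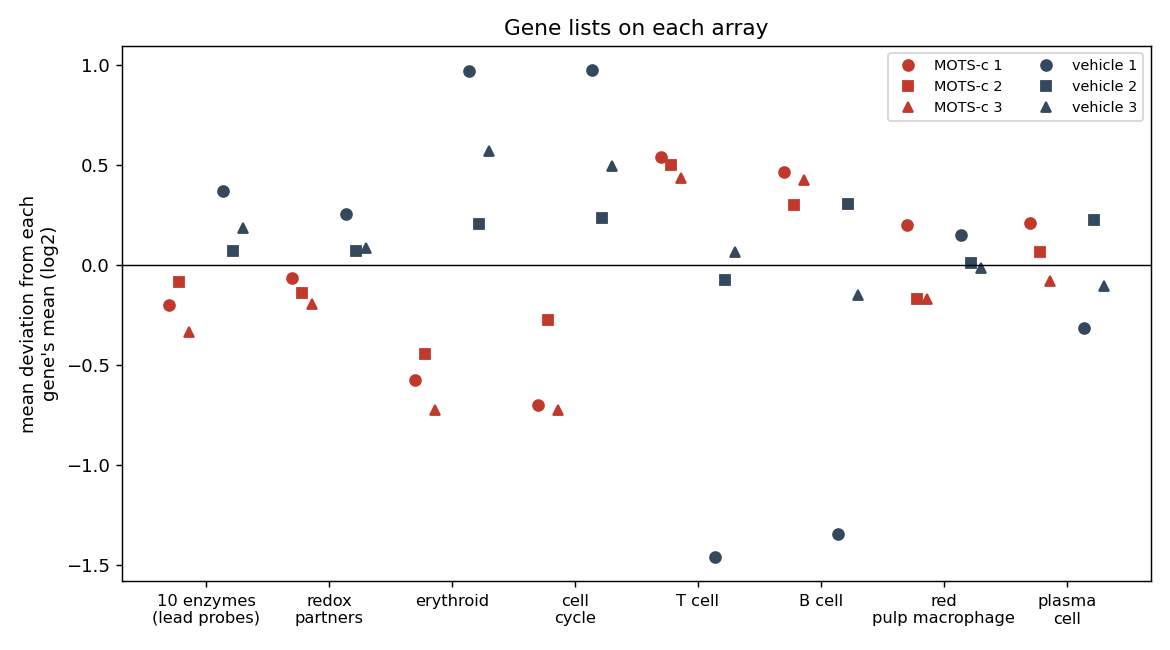
Mean deviation of each gene list on each array, as the log2 level minus each gene's mean over the 6 arrays, averaged over the list. The mean of the 10 enzymes (lead probes, leftmost) orders the arrays within each group as the erythroid and cell cycle means do, which single enzymes such as Prdx2 and Cat do not. Its values are -0.34 to 0.37, against -0.72 to 0.97 in either list. T and B cell markers are lowest in vehicle 1, at -1.46 and -1.34.

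For 4 of the genes the 3 most similar profiles over the 6 arrays were read off, with Pearson's r as the measure, as a description of 6 arrays that share group and slide. Closest to Prdx2 were Ncapd3, a condensin subunit, Cdc45, a replication factor, and Pcna, the sliding clamp of DNA polymerase, each at an r of 0.998 to 0.999. A looser bound was often passed: 675 of 5357 candidate genes had an r above 0.95 with Prdx2. Closest to Cat were Ntn4, Olfr1495 and Hacl1, a peroxisomal lyase, at 0.995 to 0.998, with 223 of 10166 candidates above 0.95. Closest to Prdx4 were Psmb3, a proteasome subunit, Tkt, transketolase, and Rangrf, at 0.995 to 0.998, with 185 of 10504 candidates above 0.95. Sod2 had Tbca, a tubulin folding cofactor, Apol10a and Apol10b at 0.948 to 0.957, and 2 of 14108 candidates above 0.95.

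The 250 bases before the RefSeq start of transcription were found for 9 of the 10 genes in the GRCm38.p6 build and searched on both strands. A loose form of the core of the antioxidant response element to which NRF2 binds, TGANNNNGC, allows any base directly after TGA. It occurred in 3 of these 9 windows, against 35.2% of all 32851 windows of that length. The erythroid GATA site, AGATAA, occurred in 0 of 9, against 9.99%. The windows with a match are those of Prdx1, Prdx5 and Sod1, with the match beginning 133, 88 and 56 bases before the start, each on the strand opposite to the gene. They are shown with that of Prdx2, the gene with the largest difference, which had no match. The capitals mark the matches to the loose pattern, which describe letters only. Read on the matching strand, the base after TGA is C in Prdx1 and Sod1 and A in Prdx5.
Prdx1 (chr4:116685349-116685598, plus strand): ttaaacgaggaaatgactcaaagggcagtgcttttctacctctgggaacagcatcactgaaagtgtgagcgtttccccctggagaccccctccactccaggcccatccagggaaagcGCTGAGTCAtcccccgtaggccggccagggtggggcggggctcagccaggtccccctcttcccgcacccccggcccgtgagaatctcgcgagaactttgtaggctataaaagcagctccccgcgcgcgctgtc
Prdx5 (chr19:6910107-6910356, minus strand): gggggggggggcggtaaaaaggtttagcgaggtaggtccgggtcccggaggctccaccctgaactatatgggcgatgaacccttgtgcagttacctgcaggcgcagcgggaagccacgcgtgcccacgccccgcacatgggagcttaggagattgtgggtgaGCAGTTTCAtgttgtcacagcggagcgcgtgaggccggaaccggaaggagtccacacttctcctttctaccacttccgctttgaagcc
Sod1 (chr16:90220512-90220761, plus strand): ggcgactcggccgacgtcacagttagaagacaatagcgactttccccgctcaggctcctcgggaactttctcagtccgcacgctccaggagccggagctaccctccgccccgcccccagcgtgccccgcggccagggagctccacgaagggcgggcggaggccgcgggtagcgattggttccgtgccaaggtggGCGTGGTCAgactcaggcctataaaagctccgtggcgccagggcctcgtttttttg
Prdx2 (chr8:84969372-84969621, plus strand): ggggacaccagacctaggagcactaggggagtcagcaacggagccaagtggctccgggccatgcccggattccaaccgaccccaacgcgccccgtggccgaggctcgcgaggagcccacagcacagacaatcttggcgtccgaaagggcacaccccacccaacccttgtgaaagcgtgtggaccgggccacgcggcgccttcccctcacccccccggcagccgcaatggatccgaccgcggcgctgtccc
Of the genes with a match, Sod1 was lower by its lead probe, Prdx1 lay near 0 and Prdx5 had a higher mean.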

How the data were processed

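Spleen RNA of 3 MOTS-c and 3 vehicle samples was read on 1-colour (Cy3) arrays. Per the file headers, Agilent Feature Extraction 11.0.1.1 gave a background-subtracted processed signal intensity per spot, not normalized between arrays, and flags that were used as deposited. The authors' deposited table holds log2 values of the same signals, quantile normalized as the values show, a signed fold as a score, and for every probe a p-value and an adjusted one, the test not being given in the sources used here. The coordinates of probes are those of the authors' deposited table. They are taken to be in mm9, the build that the scanner files' headers name. Whether a probe lies in a coding exon or a UTR was not determined.

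Group and replicate number come from the titles, which for vehicle 3 and MOTS-c 3 give another number than the descriptions. Of 62976 spots per array, 59305 were not controls, 97 to 145 of them outliers and left out, and 0 saturated. Replicate spots were averaged as log2 values, and each array's 75th percentile was subtracted. The precision is limited by the number of arrays. Of 56605 probes, 38977 had a symbol through gene ID or accession in the RefSeq table. A probe entered the test if 1 group or both had it well above background on 3 of 3 arrays, which left 33734 probes for limma 3.58.1 in R 4.3.3 (lmFit and eBayes) at an adjusted p of 0.05. The test was tested on simulated data of 33734 probes, where it called 27 of 100 probes shifted by 1 (log2), 69 of 100 shifted by 2 and 6 without a shift. An exact permutation test of 3 against 3 cannot go below a p of 0.1 and was not used.

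The genes and lists were chosen with earlier results of these data known. Named are every probe of the 10 genes in the authors' deposited table and the 8 partner genes with the smallest p. Also named are the 3 genes closest in profile to Prdx2, Cat, Prdx4 and Sod2 (lead probe well above background on all arrays, an SD of at least 0.5 of the member's, no clone or model name). The alternatives were quantile normalization, the array median, normexp with an offset of 50 on median signal and background (no mean signal was used) followed by quantile normalization, the authors' deposited log2 values, stricter and no filters on dim probes, 1 probe per gene, the slide as a block and within the slide, a replicate block, and each array left out. Same-numbered arrays did not deviate together (correlations of -0.17, 0.0064 and -0.090), so no pairing by number was seen. With 3 arrays per group these values cannot exclude a pairing of the samples. Promoter sequences are RefSeq's, build GRCm38.p6.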

Additional observations from a re-analysis of the deposited data

How the results depend on the processing

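Over 16 alternatives (15 for a gene's further probes, which do not enter the fit with 1 probe per gene), every probe of Prdx2, Prdx3, Prdx4, Cat and Txn1 and the lead probe of Sod1 kept a lower mean in MOTS-c spleens, and both Prdx5 probes a higher one. Prdx1 probe A_66_P137616 stayed higher and the second Prdx6 probe lower, and the remaining probes changed sign around 0. For Prdx1 the lead probe was 0.21 with quantile normalization, 0.20 with normexp and quantile normalization and 0.21 on the authors' deposited log2 values, and -0.068 to 0.012 with each array left out. Probe A_51_P353183 of Prdx1 was -0.032 with the array median and -0.013 with the slide as a block or within slide 2 (-0.021 to 0.062 with each array left out), and probe A_66_P113839 was -0.027 with the array median (-0.0085 to 0.082). Sod2 was 0.046, 0.063 and 0.045 under quantile normalization, normexp and the authors' deposited values (-0.073 to 0.063), the Prdx6 lead probe was 0.00055 on the authors' deposited values, and probe A_52_P3581 of Sod1 was 0.0091 with the slide as a block or within slide 2 (-0.084 to 0.042). The cause was not tested.

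The median of the 10 lead probes was -0.30 with quantile normalization, -0.34 with normexp, -0.30 on the authors' deposited values and -0.29 with the slide as a block or within slide 2, and -0.55 to -0.38 with each array left out. The lead probes lower at an unadjusted p under 0.05 were 3 with the slide as a block or within slide 2 and 2 to 5 with each array left out, the fewest without MOTS-c 3. They were 5 with the replicate block. Those past an adjusted p of 0.05 were 0 to 2, the 2 being Prdx2 and Prdx3 without vehicle 2. Over all tested probes, limma called 2 at an adjusted p under 0.05, and 0 with normexp, on the authors' deposited values, with either other filter on dim probes and with the replicate block, where 8796, 8198, 8142, 9066 and 7189 had an unadjusted p under 0.05. It called 1 with the slide as a block, 4 within slide 2, and 0 to 1033 with each array left out, the most without vehicle 2. The named partners were run through the same alternatives after their values had been seen. Txnrd1 was 0.13 with the slide as a block or within slide 2, and the others kept their sign. Of the lists, the redox partners at an unadjusted p under 0.05 were 5 with the slide as a block, and the neutrophil and pancreatic acinar medians were -0.16 and -6.62 there and within slide 2. The red pulp macrophage median was 0.074, 0.071 and 0.073 with quantile normalization, normexp and the authors' deposited values. With 1 vehicle array within slide 2, that array is assumed to vary like the MOTS-c arrays.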
